A study of Mus musculus with 16 samples.

Results

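The genes described here are 10 established transcriptional targets of the tumour suppressor p53, chosen by symbol and followed across colon organoids of 2 genotypes either untreated or given the cytokine tumour necrosis factor alpha (TNFa). They are Cdkn1a, Ccng1, Mdm2, Pmaip1, Bbc3, Fas, Aen, Trp53inp1, Sesn2 and Zmat3, 10 of the 18850 named genes on the array. Each was represented by its only probe set. Gene expression was measured on single-colour Affymetrix arrays, 1 array per sample, in cultured balls of mouse colon epithelium. There were 16 arrays, 4 for each of the untreated wild-type (WT), TNFa-treated WT, untreated mutant and TNFa-treated mutant cultures. Treated organoids received recombinant TNFa at 50 ng/ml for 12 h, and all grew in ENR medium. The mutant carries the genotype label ATF2 fl/fl / ATF7 KO, whereas its sample descriptions call it an ATF2 knockout with floxed ATF7. Recombination of the floxed allele is mentioned nowhere in the labels, so loss of both genes is not known. The labels give no sex, age or number of animals. No label ties a numbered sample to a separate animal or culture, so the spread that p-values rest on may be technical.

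p53 is a transcription factor held low by the ubiquitin ligase MDM2 and stabilised after DNA damage and other stress. It binds response elements made of a pair of decamers and turns on genes that stop the cell cycle, favour apoptosis, limit growth signalling or feed back on p53 itself. In intestinal epithelium it is best known for the response of crypt cells to radiation. Several of its targets also answer to other factors: the death receptor gene Fas to NF-kB, and the sestrin gene Sesn2 to the stress factor ATF4. ATF2 and ATF7 are related transcription factors that stress kinases phosphorylate and that bind AP-1 and cyclic AMP response elements.

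RefSeq promoter windows (build GRCm38.p6, from 250 bases before to 50 bases after an annotated start) were at hand for 7 of the 10 genes, in 11 windows. They were searched on both strands for the p53 half-site by name, the NF-kB site by name, the AP-1 site TGACTCA or TGAGTCA, and the cyclic AMP response element TGACGTCA. A p53 half-site was found for 4 of the 7 genes, Cdkn1a, Aen, Mdm2 and Ccng1, and in 5 of the 11 windows, against 8.36% of all 32851 windows. The Aen windows overlap and share the same site, which is thus counted more than once among the 5. A pair of such half-sites no more than 13 bases apart occurred for Cdkn1a alone among the 7, against 0.0731% of all windows. Only exact matches were sought, so these need not be the decamers that p53 binds. The stretches below show the matches, with the half-sites in capitals.
Cdkn1a, chr17:29090896-29090947, plus strand: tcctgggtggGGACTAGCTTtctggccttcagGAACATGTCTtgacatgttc
Aen, chr7:78895927-78895956, plus strand: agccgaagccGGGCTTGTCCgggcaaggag
Mdm2, chr10:117710925-117710954, minus strand: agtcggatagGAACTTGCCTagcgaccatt
Ccng1, chr11:40755452-40755481, minus strand: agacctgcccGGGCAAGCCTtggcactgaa

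Of the 7 genes, Fas alone held an AP-1 site, 211 bases before its start, against 5.2% of all windows. Bbc3 alone held NF-kB sites, a pair of matches that overlap, the first of them 137 bases before a start, against 4.51%. The response element TGACGTCA was found in 0 of the 11 windows, against 1.79%. These are matches of letters and were not tested as binding sites. The AP-1 match of Fas and the first NF-kB match of Bbc3 are in capitals here.
Fas, chr19:34290438-34290464, plus strand: tgtgcagtggTGAGTCAgtgggtttcc
Bbc3, chr7:16309436-16309465, plus strand: tctggctgccGGGAAACCCCccgcgccgag

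Dim genes were set aside: testing required 4 or more arrays with a signal above the 40th percentile of that array (6.40 to 6.56 log2). Of the 10 genes 9 met this, as did 11766 genes in all. Calls are at an adjusted p under 0.05 in limma. Trp53inp1, which encodes a nuclear stress protein that promotes cell death and autophagy, was below that percentile on all 16 arrays and was not tested. Zmat3, a zinc finger RNA-binding protein, passed the filter but had a mean in the dim range in every group. Array WT + TNFa 2 stood apart, with a mean correlation of 0.977 with its group against 0.986 to 0.988 for the other arrays of that group. TNFa acted in both genotypes as judged by the chemokine gene Ccl20, which rose by 4.15 log2 in WT and 4.25 in mutant (adjusted p = 2.3e-13 and 1.6e-13). Atf2 signal did not separate the genotypes (mutant minus WT -0.02 log2, adjusted p = 0.942), and the sources used here do not give the part of Atf2 that its probe set covers, so this checks nothing. All 12 epithelial markers were above the percentile on every array, among them Epcam and Cdh1. The 6 endothelial markers, and the 3 glial ones measured, were below it on every array. Of 9 measured fibroblast and smooth muscle markers, 3 were above it on every array (Col1a1, Pdgfrb and Myh11) and 5 on none. In a bulk sample, fewer cells of a type and less RNA per cell cannot be told apart.

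With TNFa, WT organoids had modestly higher signals for Pmaip1, Fas and Aen, and the other tested p53 targets did not pass the test. Of 9 tested targets 3 rose and 0 fell, at a background of 5.03% of all tested genes called higher and 5.75% called lower. The sizes were Pmaip1 1.31-fold, Fas 1.28-fold and Aen 1.21-fold. The median change of the 9 was 0.10 log2, beside 0.01 over all 11766 tested genes.

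**Figure D1:**
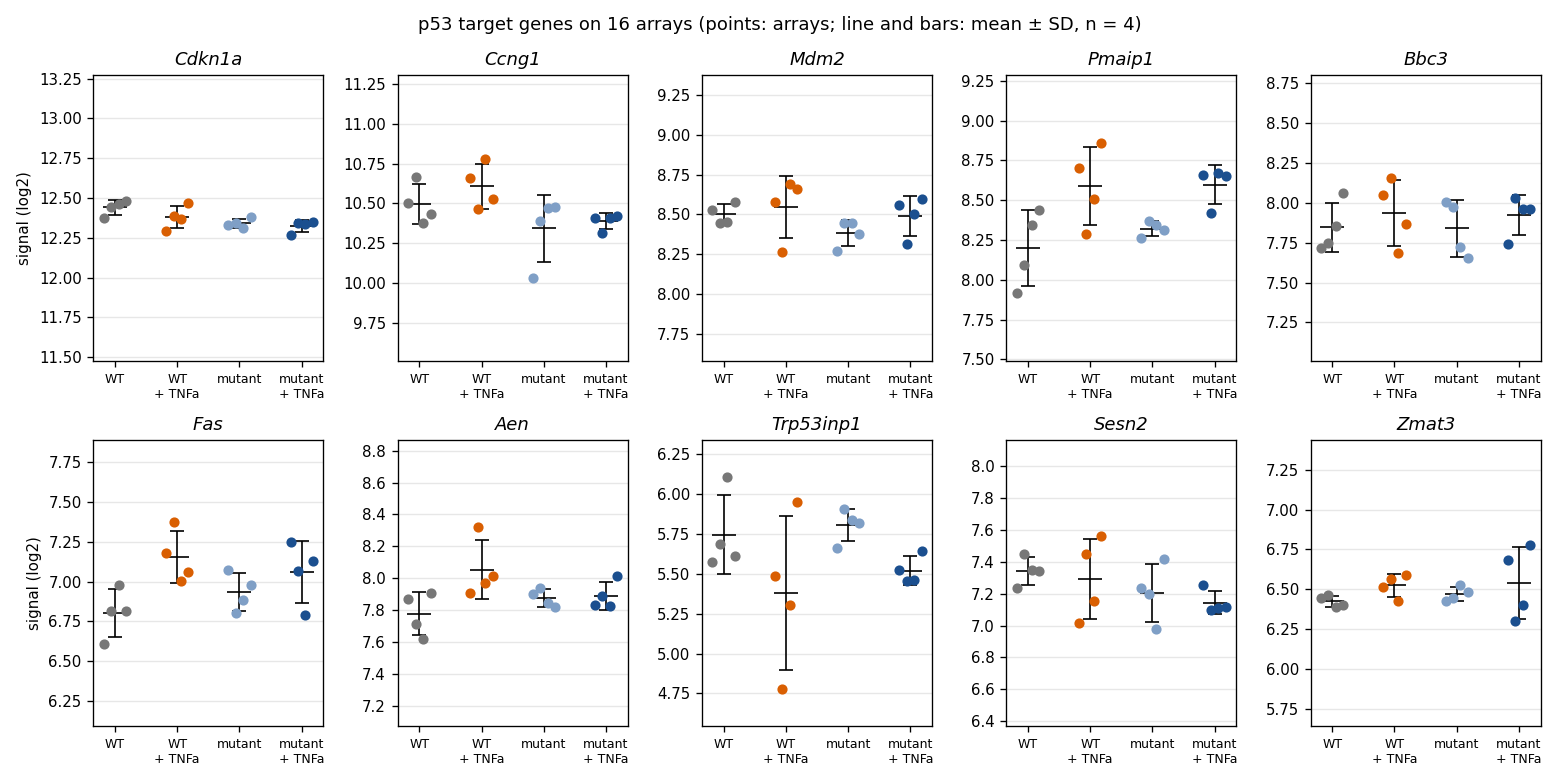
Signal of each p53 target gene (log2, vertical axes, each spanning the same range) in the 4 groups; points are the 4 arrays of a group and the black line and bars are their mean and SD. In WT, Pmaip1, Fas and Aen shift upward with TNFa by 0.39, 0.35 and 0.28 log2, while Cdkn1a lies between 12.27 and 12.48 log2 on all 16 arrays.

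Pmaip1 encodes NOXA, a BH3-only protein that binds the survival factor MCL1 and so favours apoptosis. Its signal in WT arrays 1 to 4 was 7.91, 8.09, 8.35 and 8.44 log2, and with TNFa 8.70, 8.29, 8.51 and 8.86. Array WT + TNFa 2 was the lowest treated array and lay below untreated arrays 3 and 4, so the groups overlapped. Means were 8.20 ± 0.24 and 8.59 ± 0.25 log2 (SD, n = 4). The rise was 0.39 log2 (SE 0.12, 95% interval 0.14 to 0.64, adjusted p = 0.0406). Without WT + TNFa 2 it was 0.49 log2 (adjusted p = 0.00695).

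Fas encodes the death receptor that recruits FADD and caspase 8. Its signal was 6.61, 6.81, 6.98 and 6.81 log2 in WT and 7.18, 7.38, 7.01 and 7.06 with TNFa. It was the only tested target whose WT groups did not overlap, as in 14.2% of all tested genes (6.82% higher, 7.34% lower with TNFa). The rise was 0.35 log2 (SE 0.10, 95% interval 0.13 to 0.57, adjusted p = 0.0367). Array WT + TNFa 2 was the highest, and without it the difference was 0.28 log2 (adjusted p = 0.0928).

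Aen encodes a nuclease that p53 induces and that digests DNA during apoptosis. Its signal was 7.87, 7.71, 7.62 and 7.91 log2 in WT and 7.91, 8.32, 7.97 and 8.01 with TNFa. Array WT + TNFa 2 exceeded the next treated array by far more than the others differed, and WT + TNFa 1 was level with the highest untreated array, so the groups touched. The rise was 0.28 log2 (SE 0.09, 95% interval 0.09 to 0.46, adjusted p = 0.0486). Without WT + TNFa 2 the difference was 0.19 log2 (adjusted p = 0.112).

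The 3 calls were close to the threshold and depended on single arrays. Leaving out each of the 16 arrays in turn, Fas lost its call 5 times, Pmaip1 9 times and Aen 14 times, with adjusted p up to 0.119, 0.133 and 0.146. The number of targets called then ranged from 0 to 2. The number of targets was 0 without WT 1 or WT 2 and 1 without any single WT + TNFa array. It was also 1 without mutant 2, mutant 4, mutant + TNFa 1 or mutant + TNFa 4, arrays outside this comparison that enter through the shared estimate of the spread, the filter and the adjustment of p. The direction of all 3 was higher with TNFa in every one of these fits. Beside these changes, the summed signal of the 9 measured immune markers was lower with TNFa in WT (10.25 to 10.43 log2, against 10.57 to 10.81), where the lysozyme gene Lyz2 went from 8.32 to 7.58 and Kit from 9.77 to 9.31. These 2 were the only immune markers above the percentile on all arrays; of the 9, 5 had a lower and 4 a higher mean with TNFa in WT, Ptprc going from 6.25 to 6.41 log2. The pan-leukocyte marker Ptprc passed the percentile on 2 of 16 arrays. In mutant the summed ranges overlapped, 10.52 to 10.73 log2 untreated and 10.58 to 10.71 with TNFa. There Lyz2 went from 8.45 to 8.83 and Kit from 9.55 to 9.43. The part of these markers in the results was not tested.

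**Figure D2:**
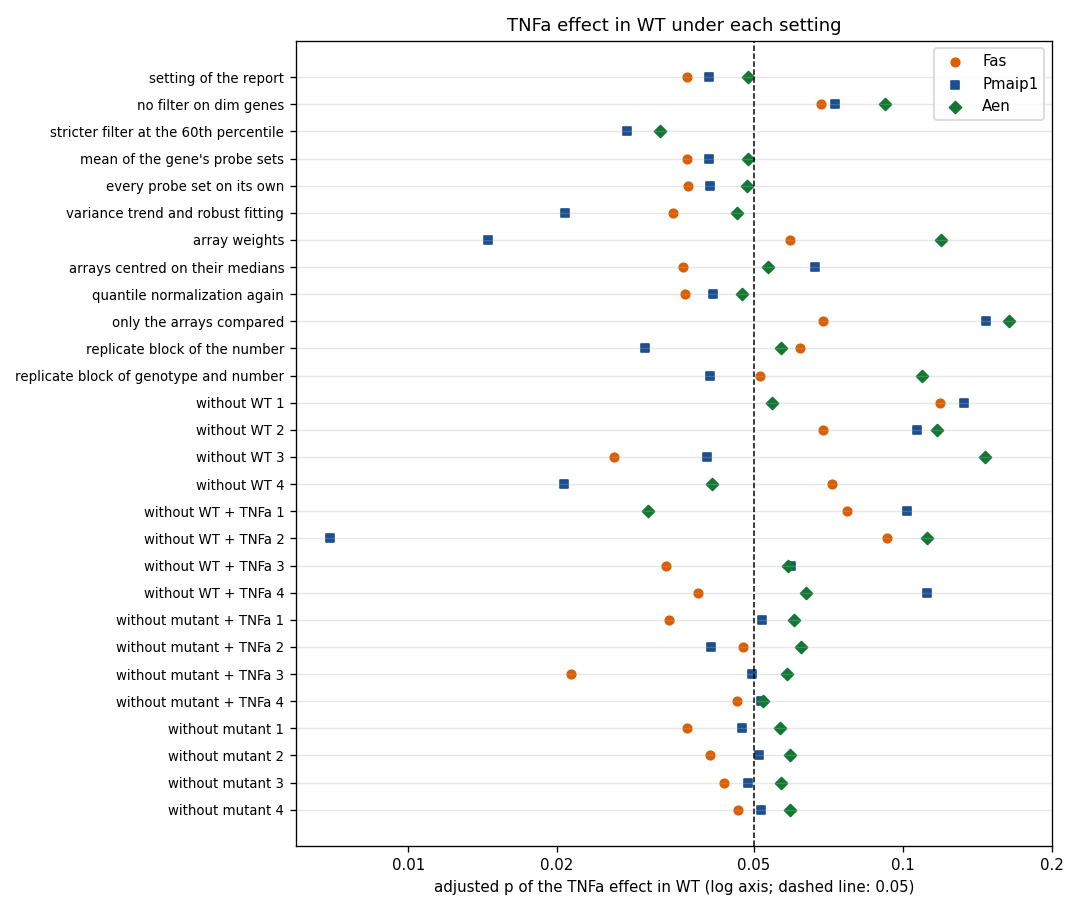
Adjusted p of the TNFa effect in WT for Fas, Pmaip1 and Aen (horizontal log axis) under each setting (rows), with a dashed line at 0.05. Points lie on both sides of the line for each gene; without WT + TNFa 2, Pmaip1 reaches 0.00695 while Aen is at 0.112.

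The cell cycle and feedback targets did not pass the test in WT. Cdkn1a encodes p21, the inhibitor of cyclin-dependent kinases through which p53 arrests the cell cycle. Its signal was 12.38, 12.44, 12.46 and 12.48 log2 in WT and 12.30, 12.39, 12.37 and 12.47 with TNFa. The groups overlapped, and the difference was -0.06 log2 (SE 0.05, 95% interval -0.17 to 0.05, adjusted p = 0.526).

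Mdm2, the ubiquitin ligase that degrades p53 and is itself induced by it, was at 8.53, 8.45, 8.45 and 8.58 log2 in WT and 8.58, 8.26, 8.69 and 8.66 with TNFa. Array WT + TNFa 2 was the lowest of all 8, and treated arrays 3 and 4 were above every untreated one. The difference was 0.04 log2 (95% interval -0.14 to 0.23, adjusted p = 0.817), or 0.14 (adjusted p = 0.236) without WT + TNFa 2. Ccng1, the cyclin G1 gene, whose product works with MDM2 and a phosphatase, had means of 10.49 ± 0.13 and 10.61 ± 0.14 log2. It differed by 0.11 log2 (95% interval -0.09 to 0.32, adjusted p = 0.519).

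The remaining targets did not pass the test in WT either. Bbc3 encodes PUMA, the other BH3-only protein among the 10, and differed by 0.09 log2 (95% interval -0.14 to 0.32, adjusted p = 0.676). Its untreated arrays ran from 7.72 to 8.06 log2 and its treated arrays from 7.68 to 8.15, an almost complete overlap. Sesn2, an inhibitor of the growth kinase complex mTORC1, differed by -0.05 log2 (95% interval -0.28 to 0.18, adjusted p = 0.832). Its treated arrays spread more widely, from 7.02 to 7.56 log2 against 7.24 to 7.45. Zmat3 differed by 0.10 log2 (95% interval -0.08 to 0.28, adjusted p = 0.525), with a mean of 6.42 log2 in WT and 6.52 with TNFa. Trp53inp1 ranged from 5.58 to 6.11 log2 in WT and from 4.78 to 5.95 with TNFa. In a fit of all 18850 genes with no filter it differed by -0.37 log2 (SE 0.17, 95% interval -0.74 to 0.0028, adjusted p = 0.296), and with every array in the dim range this value is approximate.

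In mutant organoids 0 of the 9 tested targets were called with TNFa, at a background of 5.98% of tested genes in either direction (3.51% higher, 2.47% lower). At an unadjusted p under 0.05 there was 1, Pmaip1. The median change of the 9 was 0.07 log2, beside 0.01 over all tested genes.

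Pmaip1 signal was 8.26, 8.37, 8.35 and 8.31 log2 in mutant and 8.66, 8.42, 8.67 and 8.65 with TNFa. Every treated array was above every untreated one, which held for 13.9% of tested genes in either direction and 7.88% with higher signal. Array mutant + TNFa 2 lay far below the other 3 of its group, which were close together. The difference was 0.28 log2 (SE 0.12, 95% interval 0.03 to 0.52, adjusted p = 0.244). In a fit of the 8 mutant arrays alone, the adjusted p was 0.0304, and Pmaip1 was then the 1 target called.

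Fas and Aen had smaller differences with TNFa in mutant. Fas was at 7.07, 6.80, 6.88 and 6.98 log2 and with TNFa at 7.25, 7.06, 6.79 and 7.13, overlapping groups that differed by 0.12 log2 (95% interval -0.10 to 0.34, adjusted p = 0.677). Aen was at 7.90, 7.94, 7.84 and 7.82 log2 and with TNFa at 7.83, 7.89, 7.82 and 8.01. It differed by 0.01 log2 (95% interval -0.17 to 0.20, adjusted p = 0.976). The other 6 tested targets differed by -0.06 to 0.11 log2, with the p53 regulator Mdm2 the highest (0.11, 95% interval -0.08 to 0.29, adjusted p = 0.660). Trp53inp1 ranged from 5.66 to 5.91 log2 in mutant and from 5.45 to 5.65 with TNFa, so these dim groups did not overlap. Groups were apart in 13.9% of tested genes (5.98% lower), a share that leaves out dim genes such as this one. Without a filter the Trp53inp1 difference was -0.29 log2 (adjusted p = 0.641).

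**Figure D3:**
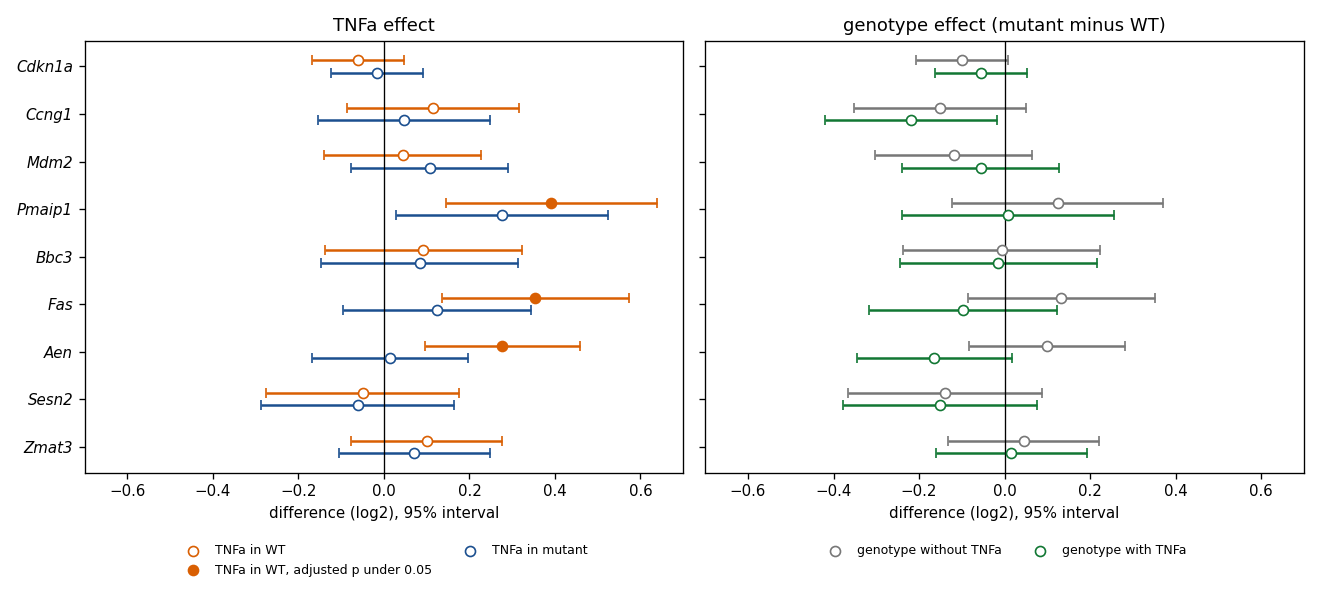
Differences in log2 signal with 95% intervals for the 9 tested targets; the left panel gives the TNFa effect in each genotype and the right panel the mutant minus WT difference with and without TNFa. Filled points passed an adjusted p of 0.05, which held for Pmaip1, Fas and Aen with TNFa in WT and for no point in the right panel.

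The TNFa effects were not shown to differ between the genotypes for any target. The test of that difference called 0 of the 9, at a background of 0.0085% (1 of 11766 genes). At an unadjusted p under 0.05 there was 1, beside 855 of all 11766 tested genes. It was Aen, whose effect was 0.26 log2 smaller in mutant (95% interval of the difference -0.52 to -0.0056, unadjusted p = 0.0457, adjusted p = 0.681). Without WT + TNFa 2 the Aen difference of effects was -0.17 log2 (adjusted p = 0.692). For Fas the difference of effects was -0.23 log2 (95% interval -0.54 to 0.08, adjusted p = 0.791), or -0.16 (adjusted p = 0.832) without WT + TNFa 2. For Pmaip1 it was -0.12 log2 (95% interval -0.47 to 0.23, adjusted p = 0.911), or -0.22 (adjusted p = 0.780) without WT + TNFa 2. These intervals include values as large as the WT effects themselves, and equal effects were not shown. For Cdkn1a the difference was 0.04 log2 (95% interval -0.11 to 0.20, adjusted p = 0.925), the narrowest interval of the 9.

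Without TNFa, 0 of the 9 targets were called between mutant and WT, at a background of 2.48% (1% higher, 1.48% lower in mutant), and 0 had an unadjusted p under 0.05. The largest difference was in Ccng1, at 10.50, 10.67, 10.37 and 10.44 log2 in WT and 10.03, 10.39, 10.47 and 10.48 in mutant. Array mutant 1 was the lowest of the 8, and the groups overlapped. The difference was -0.15 log2 (95% interval -0.35 to 0.05, adjusted p = 0.553). Mdm2 was the only target whose groups did not overlap, as in 9.34% of tested genes (3.46% higher, 5.88% lower). It was at 8.27, 8.45, 8.44 and 8.38 log2 in mutant, just below the 8.45 to 8.58 of WT, and differed by -0.12 log2 (95% interval -0.30 to 0.06, adjusted p = 0.626). Cdkn1a differed by -0.10 log2 (95% interval -0.21 to 0.01, adjusted p = 0.419). This comparison shares its WT arrays with the TNFa effect in WT.

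With TNFa present, 0 of the 9 were called between mutant and WT, at a background of 2.69% (1.56% higher, 1.13% lower in mutant), and 1 had an unadjusted p under 0.05. That was Ccng1, at 10.66, 10.46, 10.78 and 10.53 log2 in WT with TNFa and 10.41, 10.32, 10.41 and 10.42 in mutant with TNFa. All mutant arrays lay below all WT arrays, a separation seen in 8.89% of tested genes (4.27% higher, 4.62% lower). The difference was -0.22 log2 (SE 0.10, 95% interval -0.42 to -0.02, adjusted p = 0.310). With array weights it was -0.30 log2 and was called (adjusted p = 0.0395). Aen followed with -0.16 log2 (95% interval -0.35 to 0.02, adjusted p = 0.425) and Sesn2 with -0.15 (adjusted p = 0.589), while Pmaip1 differed by 0.0081 log2 (95% interval -0.24 to 0.26, adjusted p = 0.989). Without WT + TNFa 2 the Aen difference was -0.07 log2 (adjusted p = 0.684). That of Ccng1 was then -0.27 (adjusted p = 0.197) and that of Pmaip1 -0.09 (adjusted p = 0.750).

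The targets did not move as a block across the arrays. Over 36 pairs of the 9 tested genes, the correlation across 16 arrays had a median of 0.10 and ran from -0.39 for Bbc3 with Ccng1 to 0.73 for Cdkn1a with Sesn2. It exceeded 0.5 in 5 pairs and was below 0 in 13. The points are arrays of 4 groups, so the values mix group effects and spread between samples. After removal of the group means the median was 0.06, Cdkn1a with Sesn2 was at 0.66 (Spearman over all arrays 0.75) and Bbc3 with Ccng1 at -0.65. Mdm2 with Ccng1 was at 0.61 over all arrays (Spearman 0.46) and 0.52 within groups, and Mdm2 with Pmaip1 at 0.51 (Spearman 0.65) and 0.61. These are descriptions of 16 arrays, of which WT + TNFa 2 was low for Mdm2, Pmaip1 and Ccng1 and high for Aen, Fas and Bbc3 within its group.

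The tested genes with signals most like each target were as follows. For Cdkn1a they were Mapre3 (r = 0.94 over 16 arrays) and Vldlr, a lipoprotein receptor gene (0.89). For Pmaip1 they were Trim25 (0.90) and Trim40 (0.89), both of the tripartite motif family, with 0.80 and 0.78 after removal of group means. For Ccng1 they were the ribosomal protein gene Rps24 (0.94) and Prrg4 (0.94). Mdm2 was most like the nuclear pore gene Nup160 (0.89) and Zfp992 (0.87), Aen most like Armc8 and Pmpca (both 0.90), and Fas most like Kcnab2 (0.86) and Tmem212 (0.85). Bbc3 was nearest Armcx1 (0.81) and Sema3g (0.80), Sesn2 nearest Foxo4 (0.84) and Pfkp (0.84), and Zmat3 nearest Ptpn13 (0.70) and Gpat4 (0.69). On ranks the values were lower for Aen with Armc8 (Spearman 0.71) and Pmpca (0.59) and for Zmat3 with Gpat4 (0.37). All were picked as the highest among 11766 tested genes on 16 arrays, where high values can arise without any link.

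Genes around p53 were read from lists of regulators, further targets and partners. Of 13 tested regulators of p53, 0 were called in any of the 5 comparisons. Of all tested genes, 10.8% and 5.98% were called with TNFa in WT and mutant, and 2.48% and 2.69% between genotypes without and with TNFa. For the difference of effects the share was 0.0085%, so 0 of 13 is no result about the list. Regulators with an unadjusted p under 0.05 numbered 0 to 2, beside 855 to 2769 of all 11766 tested genes. Mdm4, the MDM2 relative that holds p53 inactive, was 0.36 log2 higher with TNFa in WT (SE 0.18, adjusted p = 0.247) and 0.27 higher in mutant (adjusted p = 0.568). Without WT + TNFa 2 its WT difference was 0.58 log2 and was called (adjusted p = 0.00986), as it was with array weights (0.52, adjusted p = 0.0223). The p53 gene itself was in this list but not among its tested genes, so no value is given for it.

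Of 36 other tested p53 targets, 2 rose and 2 fell with TNFa in WT, or 3 and 3 without WT + TNFa 2, and 1 rose and 1 fell in mutant. These are 11.1% and 5.56% of the list, near the 10.8% and 5.98% of all tested genes, so the counts are no result about the list. The median of the 36 was 0.02 log2 with TNFa in WT; in mutant it was -0.01. Steap3, a metalloreductase of iron uptake, fell by 1.07 log2 in WT (SE 0.12, adjusted p = 1.1e-05) and by 0.51 in mutant (adjusted p = 0.0146). It was 0.49 log2 lower in untreated mutant than in WT (adjusted p = 0.0382), and the latter calls were lost without 2 and 9 of the 16 arrays in turn. The difference of Steap3's TNFa effects between the genotypes, 0.56 log2, was not called (adjusted p = 0.412). Sulf2, an extracellular sulfatase, rose by 0.29 log2 in WT (adjusted p = 0.0436) and by 0.47 in mutant (adjusted p = 0.00248), the WT call being lost without 9 arrays in turn. The thiamine transporter gene Slc19a2 rose by 0.26 log2 in WT (adjusted p = 0.0268, lost without 6), and the xylulose reductase gene Dcxr fell by 0.18 (adjusted p = 0.0127). Kitl, the ligand of the KIT receptor, was lower in mutant by 0.54 log2 without TNFa (adjusted p = 0.00925) and by 0.47 with it (adjusted p = 0.0225, lost without 4 arrays in turn).

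Around p21, 1 of 16 tested genes of G1 and S phase control rose and 2 fell with TNFa in WT (2 and 2 without WT + TNFa 2). In mutant 0 of 16 were called, beside 5.98% of all tested genes, and 3 had an unadjusted p under 0.05, beside 1847 of all 11766. The WT calls are 18.8% of the list, beside 10.8% of all tested genes. The retinoblastoma gene Rb1 fell by 0.38 log2 (adjusted p = 0.0103). The kinase gene Cdk6 rose by 0.33 (adjusted p = 0.0135) and Cdkn1b, which encodes the inhibitor p27, fell by 0.23 (adjusted p = 0.0308). Cdk6 and Cdkn1b lost their calls without 2 and 4 of the 16 arrays in turn. p21 acts through the DREAM repressor on a set of cell cycle genes, of which 25 were tested. In WT 1 rose, the centromere gene Cenpa (0.28 log2, adjusted p = 0.0324, lost without 5 arrays in turn), and 0 fell, or 4% of the list beside 10.8% of all tested genes; without WT + TNFa 2, 2 rose. In mutant 0 were called, beside 5.98% of all tested genes, and 1 had an unadjusted p under 0.05, beside 1847 of all 11766. All 25 differences were above 0 (median 0.11 log2, lowest 1.3e-05), where 52.8% of all tested genes were above 0. Genes read on the same arrays are not independent, and the shared sign was not tested. In WT 18 of the 25 were above 0 (median 0.07).

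The partners of NOXA and PUMA belong to the BCL2 family, of which 15 were tested. With TNFa in WT 4 rose and 0 fell, with a median of 0.14 log2 over the 15 beside 0.01 over all tested genes. The calls are 26.7% of the list in WT and, for the 3 in mutant below, 20%, beside 10.8% and 5.98% of all tested genes. They were the pro-apoptotic Bid (0.80 log2, adjusted p = 0.00194) and Bok (0.60, adjusted p = 3.4e-05), and the survival genes Bcl2l1 (0.36, adjusted p = 0.0258) and Mcl1 (0.24, adjusted p = 0.0229). In mutant 3 rose and 0 fell: Bid (0.89 log2, adjusted p = 0.00122), Bok (0.57, adjusted p = 7.1e-05) and Bcl2l1 (0.40, adjusted p = 0.0233). Leaving out arrays in turn, Bid and Bok kept their calls in all 16 fits in both genotypes, whereas Bcl2l1 lost its call 5 times in each and Mcl1 3 times.

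Around Fas, 11 genes of death receptor signalling were tested, and 2 rose and 0 fell with TNFa in WT, or 5 and 0 without WT + TNFa 2. In mutant 3 rose and 0 fell. The calls are 18.2% and 27.3% of the list in WT and mutant, beside 10.8% and 5.98% of all tested genes. Tnfsf10, the death ligand TRAIL, rose by 1.33 log2 in WT (adjusted p = 6.4e-06) and 1.93 in mutant (adjusted p = 9.8e-08), from dim signals of 5.45 and 5.40 log2. Its means with TNFa were 6.78 log2 in WT and 7.33 in mutant. It passed the filter through treated arrays, where it was high, so its place among the tested genes and in the list shares rests on them. The other rise in WT was that of Bid, given above. Casp8, the caspase that FAS activates, rose by 0.21 log2 in mutant (adjusted p = 0.0405, lost without 8 arrays in turn). In WT it differed by 0.17 log2 and was not called (adjusted p = 0.0633), and the difference of effects was 0.03 (adjusted p = 0.958). With TNFa present, Tnfsf10 was 0.55 log2 higher in mutant than in WT (adjusted p = 0.0480), a call lost without 10 arrays in turn. The difference of its TNFa effects between the genotypes, 0.60 log2, was not called (adjusted p = 0.486).

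Around Sesn2, 15 genes of the sestrin family and the integrated stress response were tested, and in WT 0 rose and 3 fell with TNFa. That is 20% of the list, beside 10.8% of all tested genes, and the 2 called in mutant are 13.3%, beside 5.98%. Stc2, a secreted stress glycoprotein, fell by 0.84 log2 (adjusted p = 4.3e-04). Ddit3, which encodes the stress factor CHOP, fell by 0.42 (adjusted p = 0.00214) and the glutathione-degrading enzyme gene Chac1 by 0.31 (adjusted p = 0.00912). In mutant 0 rose and 2 fell, Stc2 by 0.88 log2 (adjusted p = 4.0e-04) and Ddit3 by 0.30 (adjusted p = 0.0330, lost without 6 arrays in turn). In untreated mutant organoids Chac1 was 0.32 log2 lower than in WT (adjusted p = 0.0237) and the sestrin gene Sesn3 0.31 lower (adjusted p = 0.0395), calls lost without 4 and 9 arrays in turn.

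**Figure D4:**
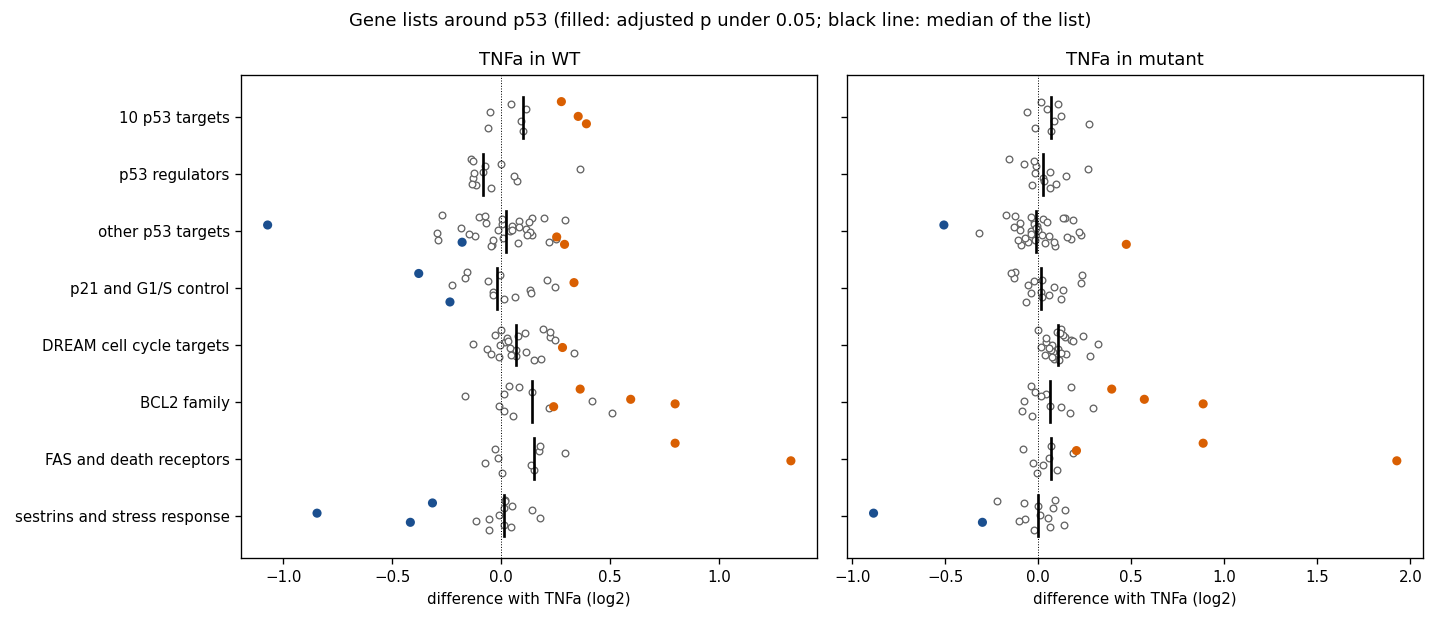
TNFa effect on each tested gene (log2 difference, horizontal axes, not the same range in both panels) in 8 gene lists, in WT on the left and mutant on the right; filled points passed an adjusted p of 0.05 and the black lines are list medians. The p53 targets have a median of 0.10 in WT and 0.07 in mutant. The largest single changes lie in other lists, with Tnfsf10, which was dim without TNFa, at 1.93 in mutant and Steap3 at -1.07 in WT.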

How the data were processed

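The deposited log2 signals, 1 per probe set and array, were made by the authors with RMA (background correction, quantile normalization and probe summary) in Expression Console, per the submitters' processing notes. Per the labels' protocols, 400 ng of RNA was amplified and labelled with biotin. For tool versions and the array's genome build, the sources used here give nothing. Of 19825 probe sets, 18851 carried 1 gene symbol, 974 none and 0 several. Each gene was read from its probe set with the highest mean over 16 arrays. No further normalization was applied. Genes were compared by limma 3.58.1 under R 4.3.3. A single model covered the 16 arrays, and p-values were adjusted by Benjamini-Hochberg over all 11766 tested genes. Errors are the SE of the fit, and intervals cover 95%. The number of arrays limits the precision. The fit was tested on simulated data.

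The members, lists, tests and alternatives were chosen with earlier results of these data known. All 10 members are named; in each other list, called genes are named per comparison, at most 4 by p, and Mdm4 always. Most similar genes were the 2 with the highest Pearson correlation. Same-numbered arrays did not deviate together, so the numbers were not taken as pairs.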

Additional observations from a re-analysis of the deposited data

Results flagged for a closer look

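Among 40 sets of 4 arrays (10 genes in 4 groups), 3 held an array whose gap to its nearest neighbour was large against the range of its group; chance flags about 1 set in 20. Pmaip1 was lowest in mutant + TNFa 2 (8.42 log2) and Ccng1 was lowest in the same array (10.32 log2). Sesn2 was highest in mutant + TNFa 1 (7.25 log2). Of the arrays themselves, WT + TNFa 2 had a low mean correlation with its group (0.977) and a high median (7.11 log2) by the same measure.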

How the results depend on the processing

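With TNFa in WT, 3 targets were called; the number was 0 with no filter on dim genes or with only the arrays compared, and 1 with array weights, with arrays centred on their medians, and with either replicate block. Blocking on the number left Pmaip1, as did blocking on genotype and number together. Same-numbered arrays correlated over 0.1 in their deviations in 3 of 16 pairs, and 3 of 16 matched their own number best. Leaving out each array in turn gave 0 to 2. With TNFa in mutant the number went from 0 to 1 with only the arrays compared, and for genotype with TNFa from 0 to 1 with array weights. The causes were not tested. The number stayed at 0 for genotype without TNFa and for the difference of TNFa effects in every alternative run. Of 1173 alternative values for the 9 tested targets, 1078 kept direction and call, 42 lost a call, 2 gained one, 51 changed sign while not called, and 0 called values reversed. Signals under 6.56 log2 limit Zmat3 and Trp53inp1.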
